A study of Mus musculus with 24 samples.

Results

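Regulators of G protein signalling (RGS proteins) were followed through the circadian cycle of mouse liver, with Rgs16 set against 8 other family members: Rgs1, Rgs2, Rgs3, Rgs5, Rgs10, Rgs12, Rgs14 and Rgs19. Members were taken by gene symbol from the platform annotation. Of the 9 genes, 8 had a probe set and are measured here (9 probe sets of 28815, and 8 of the 19935 genes tested), because Rgs3 had 2. Rgs10 was not analysed here. Rgs16 was selected on its fitted 24 h wave in these same arrays, so its wave is described below without a test, and the other 7 measured genes were tested in fits across all genes.

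Livers came from adult male C57BL/6 mice that had been entrained for 4 weeks to 12 h of light and 12 h of dim red light and were then kept in constant dim red light. Food was freely available. Tissue was taken on the second cycle after that change, at CT00, CT03, CT06, CT09, CT12, CT15, CT18 and CT21, with 3 arrays a time and 24 in all. Each array was hybridized with RNA of a single liver. The labels name 4 mice harvested a time and 3 replicates, and no group differed in genotype, treatment or diet. In circadian time (CT) the hour 0 is when the lights used to come on, and CT00 to CT12 is the subjective day. Values are log2 values relative to the median of each probe set over the 24 arrays, with the log base taken as 2. They hold differences between arrays but no level, so that expression cannot be compared between genes. Whole liver was measured, and fewer cells of a type and less RNA per cell cannot be told apart. All 8 hepatocyte markers examined, among them Alb and Apoa1, lay in the brighter of the classes that the rounding of the values reveals. The probe sets of the 7 RGS genes other than Rgs16 lay in the dimmer class, as did 24788 of all 28815 probe sets. That of Rgs16 could not be placed.

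RGS proteins speed up the hydrolysis of GTP by G protein alpha subunits and so shorten the signal that a receptor passes on. Rgs1, Rgs2, Rgs3, Rgs5 and Rgs16 belong to the small R4 subfamily, which acts on alpha subunits of the Gi and Gq classes, with Rgs2 favouring Gq. Rgs10, Rgs12 and Rgs14 form the R12 subfamily, and Rgs19, first described as GAIP, belongs to the RZ subfamily. In mouse liver Rgs16 is known as a gene of periportal hepatocytes that answers to feeding and to carbohydrate through the transcription factor ChREBP, and its protein restrains fatty acid oxidation. In the suprachiasmatic nucleus Rgs16 is rhythmic too and controls cAMP signalling there.

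The promoters of Rgs16 and of its R4 relative Rgs5 are shown because both genes lie on chromosome 1 and encode small R4 proteins, while Rgs16 had a wide 24 h wave and Rgs5 was not called for one. Sequences are those of RefSeq for GRCm38.p6, from 250 bases before to 50 bases after the start site, 5′ to 3′ on the gene's strand. The window of Rgs16 is chr1:153740103-153740402 on the plus strand and that of Rgs5 is chr1:169655251-169655550 on the plus strand. Capitals mark matches to any of the motifs named after the sequences.
Rgs16: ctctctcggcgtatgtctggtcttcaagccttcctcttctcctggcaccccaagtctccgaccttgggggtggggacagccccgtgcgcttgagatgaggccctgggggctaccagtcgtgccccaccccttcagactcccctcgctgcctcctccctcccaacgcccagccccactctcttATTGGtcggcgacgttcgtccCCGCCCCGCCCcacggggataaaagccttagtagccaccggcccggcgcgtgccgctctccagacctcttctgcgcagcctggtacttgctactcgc
Rgs5: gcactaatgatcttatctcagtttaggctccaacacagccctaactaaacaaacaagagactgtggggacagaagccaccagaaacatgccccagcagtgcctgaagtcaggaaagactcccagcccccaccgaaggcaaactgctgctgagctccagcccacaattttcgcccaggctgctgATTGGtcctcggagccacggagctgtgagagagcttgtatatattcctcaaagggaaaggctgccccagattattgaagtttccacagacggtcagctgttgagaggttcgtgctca

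The motifs searched on both strands were the E-box CACGTG, the D-box in the forms TTATGTAA and TTACGTAA, the core AGGTCA of the ROR element, the cAMP response element TGACGTCA and its part TGACG, the CCAAT box CCAAT, the GC box GGGCGG and the TATA box TATAAA. In the Rgs16 window the capitals are a CCAAT box at position -68 and GC boxes at -47 and -42, which overlap by 1 base. Positions count from the start site and give the leftmost base of the match. The Rgs5 window holds only a CCAAT box, at position -67. A CCAAT box is found in 37.4% of 32851 promoter windows of this length and a GC box in 35.7%. No E-box, D-box or AGGTCA was found in the window of Rgs16, which says only that these letters are not there. Such matches occur in 7.15% of all windows for the E-box, 0.938% and 0.119% for the D-box forms and 16.3% for AGGTCA. Of the members, 7 had an entry in the promoter table, with 11 windows in all. An E-box was found in 1 of these, at position 10 of a window of Rgs19. The part TGACG, present in 20.8% of all windows, was found at 2 places in the window of Rgs2 and in 1 window of Rgs12.

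Rgs16 rose in the subjective day, from CT03, to a plateau at CT09 and CT12 and was low again by CT15. At CT00 the 3 arrays had -0.92, 0.02 and 0.48, and at CT03 they had 0.29, -0.60 and -0.78. At CT06 the values were 0.86, 0.44 and 1.12. At CT09 they were 1.51, 1.57 and 2.52, and at CT12 they were 1.62, 2.26 and 1.65. The 6 arrays of CT09 and CT12 thus lay above all of the other 18, of which the highest, at CT06, had 1.12. At CT15 the values were -0.75, -0.52 and -0.02, at CT18 they were -0.68, -0.33 and -0.75, and at CT21 they were -0.99, -0.95 and -0.50. The 3 night times overlapped each other and overlapped CT00 and CT03.

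In order of the mean, Rgs16 stood at 1.86 ± 0.57 at CT09, 1.84 ± 0.36 at CT12, 0.81 ± 0.34 at CT06, -0.14 ± 0.72 at CT00, -0.36 ± 0.58 at CT03, -0.43 ± 0.37 at CT15, -0.59 ± 0.23 at CT18 and -0.81 ± 0.27 at CT21 (SD, n = 3 each). CT09 and CT12 differed by less than their spread. Among CT00, CT03, CT15, CT18 and CT21, each differed from the next in this order by less than the larger of their SDs. The highest and the lowest mean lay 2.68 apart, which is 6.39-fold. From CT21 the mean changed by 0.67 to CT00 and by -0.22 from there to CT03, both less than the SD of 0.72 at CT00. The climb from CT03 took 2 steps, of 1.17 to CT06 from CT03 and of 1.06 to CT09 from CT06. The descent took 1 step of -2.28 to CT15 from CT12, which is 4.84-fold within 3 h.

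**Figure D1:**
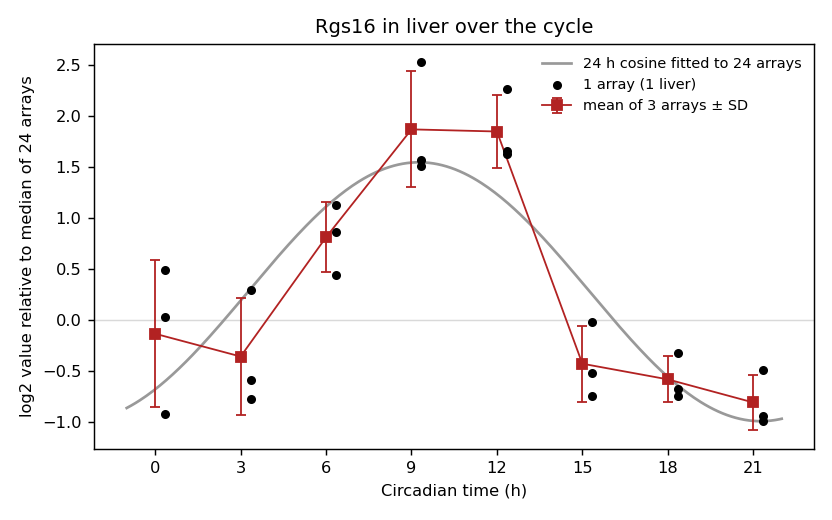
Rgs16 at each circadian time (x axis, h) as log2 value relative to the median of the 24 arrays (y axis). Black points are single arrays, red squares are means of 3 arrays with SD, and the grey line is the fitted 24 h cosine; the points of CT09 and CT12 lie between 1.51 and 2.52, above all others.

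A cosine of 24 h put the amplitude of Rgs16, which is the height of the crest over the midline, at 1.27 ± 0.17 (SE), with a peak at 9.26 h ± 0.52 and a peak-to-trough fold of 5.81. It ranked 5 among the 19935 genes, between Ciart with 1.28 and Arntl, which encodes BMAL1, with 1.19. The observed means passed above the cosine at the plateau and below it at CT15. A 12 h cosine and sine added to the fit describe this departure. For Rgs16 they had an amplitude of 0.59 ± 0.13 (SE), with crests at 10.3 h and 22.3 h, given with no test because they come from the arrays on which the gene was selected. Of all genes, 0.577% were called for a 12 h component. Of the 7 RGS genes other than Rgs16, 0 were called (limma), with 2 at an unadjusted p under 0.05, Rgs5 with 0.028 and Rgs12 with 0.0338.

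The spread of Rgs16 between livers of the same time was also wide. Its SD within times was 0.46, at percentile 99.9 of all genes, whose median was 0.10. It was widest at CT00, where the 3 livers spanned 1.41 on the log2 scale. The same 3 livers stood in the same order for Dbp, with -1.94, -0.64 and -0.04 for replicates 1, 2 and 3. Nr1d1 had that order too, with -1.71, -0.78 and -0.17. The order was reversed for Arntl, with 0.82, 0.76 and 0.70, and for the clock gene Per2, with -0.420, -0.422 and -0.576. Of Scamp1, Fgfrl1, Gpcpd1 and Ppm1a, described below, Scamp1 and Gpcpd1 had the order of Rgs16 and the others did not. Nr1d1, a repressor of the clock known as REV-ERB alpha, Arntl and Per2 were chosen for this comparison after their values had been seen. Leaving out whole times moved the amplitude of Rgs16 between 1.10 without CT12 and 1.44 without CT00, and its peak between 8.60 h and 10.2 h.

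Genes with a course most like that of Rgs16 were ranked by Pearson correlation over the 24 arrays among all genes tested. The ranking describes 24 arrays that share 8 times, and carries no p. Dbp, a PAR bZIP transcription factor of the clock output, came first with r = 0.90 (Spearman's rank correlation 0.88). It was followed by Scamp1, a membrane protein of secretory vesicles, with 0.88, and Fgfrl1, an FGF receptor without a kinase domain, with 0.87. Gpcpd1, which splits glycerophosphocholine, had 0.87, and Ppm1a, a protein phosphatase, and Nr1i3, the nuclear receptor CAR, had 0.86. Pik3ap1, Npc1, which moves cholesterol out of lysosomes, Pnpla2, the adipose triglyceride lipase, and Abcc2, an exporter of the bile canaliculus, had 0.86, 0.86, 0.85 and 0.85. Their fitted peaks lay between 8.19 h for Pik3ap1 and 10.5 h for Nr1i3, around the 9.26 h of Rgs16. The lowest correlations were those of Tpst2, which sulfates tyrosines of secreted proteins (-0.90), Insc (-0.89) and Elovl1, an elongase (-0.89), with peaks at 21.5 h, 21.97 h and 21.1 h.

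Within times, after the mean of each time was taken off, Rgs16 and Dbp had r = 0.65. The other 9 of the 10 most alike genes had values between 0.10 for Pnpla2 and 0.47 for Scamp1 and Npc1, and Tpst2 had -0.48. The r with Dbp leans on CT00, where both genes spread most (SD 0.72 for Rgs16 and 0.97 for Dbp) in the same order. It was not computed without CT00. Rgs16 and Dbp parted at CT15. There Dbp had a mean of 0.14, above its median over the arrays, whereas Rgs16 had -0.43. The descent to CT15 from CT12 was -1.21 for Dbp and -2.28 for Rgs16. Dbp went on down to -0.72 at CT18 and -1.41 at CT21, by -0.86 and -0.69 a step, where the steps of Rgs16 were -0.15 and -0.23.

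**Figure D2:**
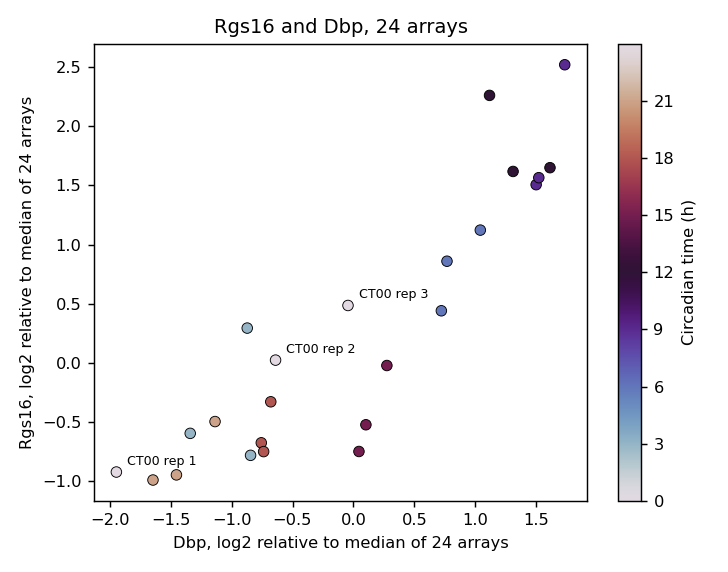
Rgs16 (y axis) against Dbp (x axis) in the 24 arrays, both as log2 value relative to the gene's median over the arrays, coloured by circadian time. The arrays rise together (r = 0.90), the 3 of CT15 lie below CT00 replicate 3 in Rgs16 although higher in Dbp, and the labelled arrays of CT00 are spread along the whole lower part.

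The other 7 measured RGS genes moved little. Over their 168 values the lowest was -0.33 and the highest 0.27, both of Rgs5, and the means of the 8 times spanned from 0.16 in Rgs3 to 0.34 in Rgs12. None of the 7 was called in the 24 h fit (0 of 7 at an adjusted p under 0.05, limma, with 1 at an unadjusted p under 0.05), where 13.8% of all genes were called. That share includes brighter genes, whereas these 7 lay in the dimmer class, which held 24788 of 28815 probe sets. Their median amplitude was 0.0391, against 0.0456 for all genes, and 4 of the 7 lay at or below that of all genes. The largest, that of Rgs2, was 0.11 ± 0.04 (SE), and the amplitude of Rgs16 was 11.9 times as large. Since the 9 genes were chosen with Rgs16 known to be rhythmic, that ratio is a description and has no test.

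**Figure D3:**
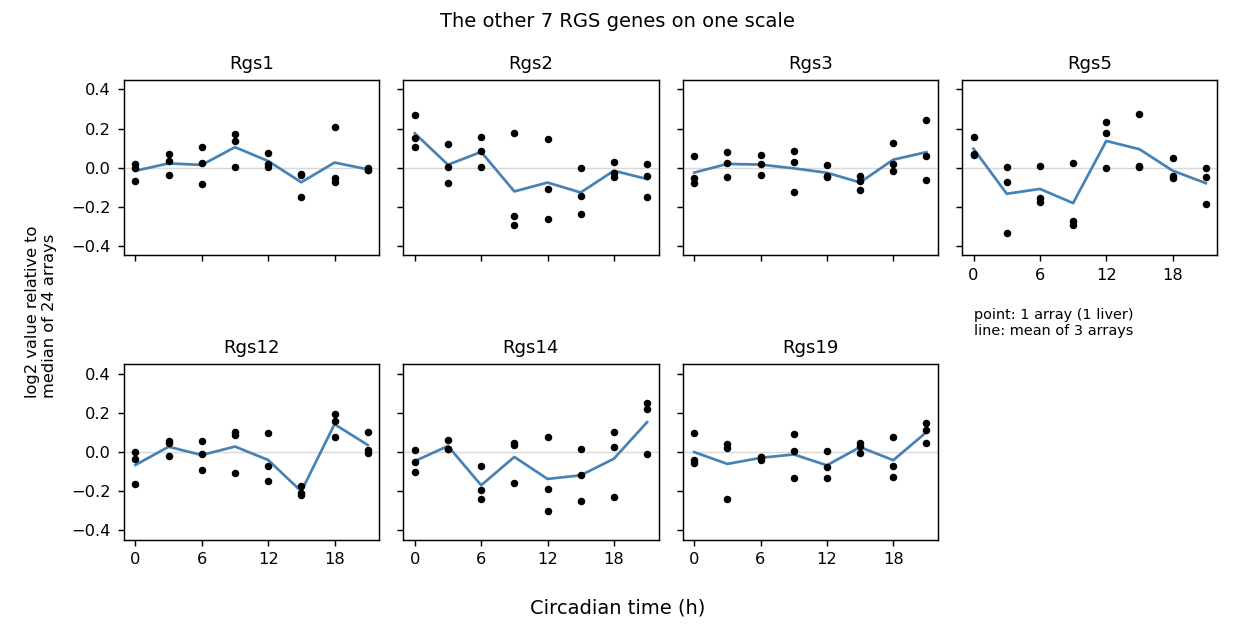
The 7 RGS genes other than Rgs16 by circadian time (x axis, h) on one log2 scale (y axis, relative to the median of the 24 arrays), with points for single arrays and lines for means of 3. All values lie between -0.33 and 0.27, and the groups of Rgs12 at CT15 and CT18, picked as its lowest and highest times, do not overlap.

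Among the R4 genes, Rgs2 was highest at CT00, with 0.15, 0.27 and 0.11, and lowest at CT15, with -0.24, -0.14 and -0.00. These groups did not overlap, but CT09 and CT12 spread from -0.30 to 0.17. Its fitted peak was at 1.39 h ± 1.37, with a fold of 1.16 and an adjusted p of 0.161 (limma; unadjusted 0.0337). With array weights Rgs2 was called (adjusted p = 0.0347), and without any single array it was not (0.0524 to 0.297).

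Rgs5, a gene of pericytes in many tissues, was low at CT09, with -0.30, -0.27 and 0.02, and high at CT12, with -0.00, 0.18 and 0.24. The groups overlapped. It was not called for a 24 h wave (amplitude 0.09 ± 0.04 SE, adjusted p = 0.369) nor for any difference among the 8 times (adjusted p = 0.127, unadjusted 0.023). That second call was made with array weights (adjusted p = 0.0205), without CT09 replicate 3 (0.0382) and without the 4 most deviating arrays (0.0429). Of 7 markers of stellate cells and pericytes, 2 were called in the 24 h fit (28.6%, against 13.8% of all genes). These were Pdgfrb with a peak at 2.71 h and Ngfr at 1.43 h. For Rgs5 the fit gave 16.6 h ± 1.77 (SE), the peak of a wave that was not called. The mean of the list was highest at CT00 (0.04) and lowest at CT15 (-0.06), and that of Rgs5 highest at CT12 and lowest at CT09. The part of these cells in the course of Rgs5 was not tested.

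Rgs1, known from B lymphocytes, had its highest mean at CT09 (0.10 ± 0.09) and its lowest at CT15 (-0.08 ± 0.07, SD, n = 3 each), and its adjusted p was 0.643 in the 24 h fit and 0.599 over the 8 times. Of 7 lymphocyte markers measured 0 were called in the 24 h fit (0 at an unadjusted p under 0.05, limma), where 13.8% of all genes were. The mean of that list was lowest at CT15 (-0.06) and highest at CT09 (0.09). Of its markers Cd8a and Ncr1 were highest at CT09 and the others at other times. Cd3e, Cd8a, Nkg7 and Ncr1 were lowest at CT15, and Cd3g, Cd79a and Ms4a1 at other times. The neutrophil list was also lowest at CT15 (-0.07) and highest at CT09 (0.08). The part of either cell type in the values of Rgs1 was not tested. Rgs3, whose long forms carry a PDZ domain, had an amplitude of 0.03 ± 0.02 (SE) and an adjusted p of 0.746. Its 2 probe sets correlated with only r = 0.27 over the 24 arrays, and neither was called when tested alone (adjusted p = 0.609 and 0.863).

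Of the genes outside R4, Rgs12 was the single gene called in the test of equality of the 8 times (1 of 7, where 10.9% of all genes were called). Rgs12 is a large RGS protein with a GoLoco motif, which holds Gi alpha subunits in the GDP-bound state. At CT15 its arrays had -0.22, -0.21 and -0.17, and at CT18 they had 0.16, 0.20 and 0.07. The 3 values of CT15 were below all 21 others, of which the lowest, at CT00, was -0.16. Rgs1, Rgs2 and Rgs3 also had their lowest mean at CT15. CT15 replicates 1 and 2 were the arrays that deviated most from the mean of their time. The mean at CT18 was 0.14 ± 0.06 and that at CT15 -0.20 ± 0.03 (SD, n = 3 each), a difference of 0.34 or 1.27-fold within 3 h. These times were picked as the highest and lowest of the 8. The adjusted p was 0.0445 (limma, moderated F), against 0.839 in the 24 h fit.

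That call lay close to the threshold. It was lost without any of 16 of the 24 arrays, where the adjusted p reached 0.110. These were CT00 replicates 1 and 2, CT03 replicates 1, 2 and 3, CT06 replicate 1, CT09 replicates 1 and 2, CT12 replicate 3, all 3 of CT15, CT18 replicates 1 and 2, and CT21 replicates 2 and 3. It was lost as well without CT03 (0.0593), CT15 (0.359), CT18 (0.155) or CT21 (0.0545), after centring each array (0.0549), after quantile normalization (0.0760), without moderation (0.0675) and without the 4 most deviating arrays (0.106). Marker lists of several cell types also had their highest or lowest mean at CT15. The highest were those of endothelial cells (0.11 at CT15 and -0.02 at CT18), hepatocytes (0.07 and -0.03) and Kupffer cells (0.04 and 0.02). The lowest were those of neutrophils (-0.07 and -0.01), stellate cells and pericytes (-0.06 and -0.04) and lymphocytes (-0.06 and -0.00). Among the 7 endothelial markers Lyve1 alone was highest at CT15, with a mean of 0.54, and the other 6 were highest at other times. The part of these cell types in the values of Rgs12 was not tested.

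Rgs14, a relative of Rgs12 that also binds Ras-like proteins, was highest at CT21, with -0.01, 0.25 and 0.22, and lowest at CT06, with -0.20, -0.07 and -0.24. These groups did not overlap, but they were picked as the extremes of the 8 times. Neither the 24 h fit (amplitude 0.09 ± 0.04 SE, adjusted p = 0.279) nor the test of the 8 times (0.254) called Rgs14. Array weights did over the 8 times (0.0294). Rgs19 was also highest at CT21 (0.10 ± 0.05, SD, n = 3), with an amplitude of 0.04 ± 0.03 (SE) and an adjusted p of 0.667. Of all pairs of the 8 genes, Rgs14 and Rgs19 had the highest correlation over the 24 arrays (r = 0.55, and 0.54 within times), and Rgs5 and Rgs12 the lowest (-0.55, and -0.57 within times). Within times the lowest was that of Rgs16 and Rgs19 (-0.60, and -0.42 over the 24 arrays). These are descriptions of 24 arrays that share their preparation.

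Times 12 h apart were compared directly. In CT12 minus CT00, CT15 minus CT03, CT18 minus CT06 and CT21 minus CT09, 3.46%, 4.48%, 4.64% and 3.56% of all genes were called. None of the 7 RGS genes was called in any of them (0 in each, limma, with 1, 2, 1 and 0 at an unadjusted p under 0.05). Rgs12 came nearest, with -0.20 at CT15 and 0.03 at CT03, a difference of -0.23 ± 0.07 (SE, adjusted p = 0.0609). It was called with array weights (adjusted p = 0.0402), without CT09 replicate 3 (0.0364) and without CT12 replicate 1 (0.0389). Rgs2 had -0.08 at CT12 and 0.18 at CT00, a difference of -0.25 ± 0.11 (SE, adjusted p = 0.330; 0.0306 with array weights). The 95% intervals of the 28 differences of these genes reached no further than -0.47, for Rgs2 at CT12 minus CT00, and 0.43, for Rgs5 at CT15 minus CT03. For Rgs16, with no test, the difference was 1.98 in CT12 minus CT00 and -2.68 in CT21 minus CT09, its lowest and highest times. It was -0.07 in CT15 minus CT03, where both times lie low.

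A further 13 genes of the family were on the array (Rgs4, Rgs6, Rgs7, Rgs8, Rgs9, Rgs11, Rgs13, Rgs17, Rgs18, Rgs20, Rgs21, Rgs22 and Rgsl1). None was called in the 24 h fit (0 of 13, limma, and 0 at an unadjusted p under 0.05) or over the 8 times. Their amplitudes ran up to 0.08 in Rgs4 (adjusted p = 0.275), and their median fold was 1.02, against 1.07 for all genes. Of the 20 RGS genes measured besides Rgs16, 0 were therefore called for a 24 h wave, where 13.8% of all genes were. None of these 20 lay in the brighter class, which held 4007 of 28815 probe sets and whose genes count in the 13.8%. The share among equally dim genes was not computed. Rgs16 has an RGS gene beside it on chromosome 1. Rgs8, its nearest protein-coding neighbour on the near side, had 1.07-fold (adjusted p = 0.634), and Rgsl1, on the far side, 1.00-fold. Of 3 further neighbours, Dhx9, an RNA helicase gene, was called with 1.38-fold, cresting at 11.4 h (adjusted p = 0.000262). Npl and Teddm2 were not (adjusted p = 0.695 and 0.595).

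**Figure D4:**
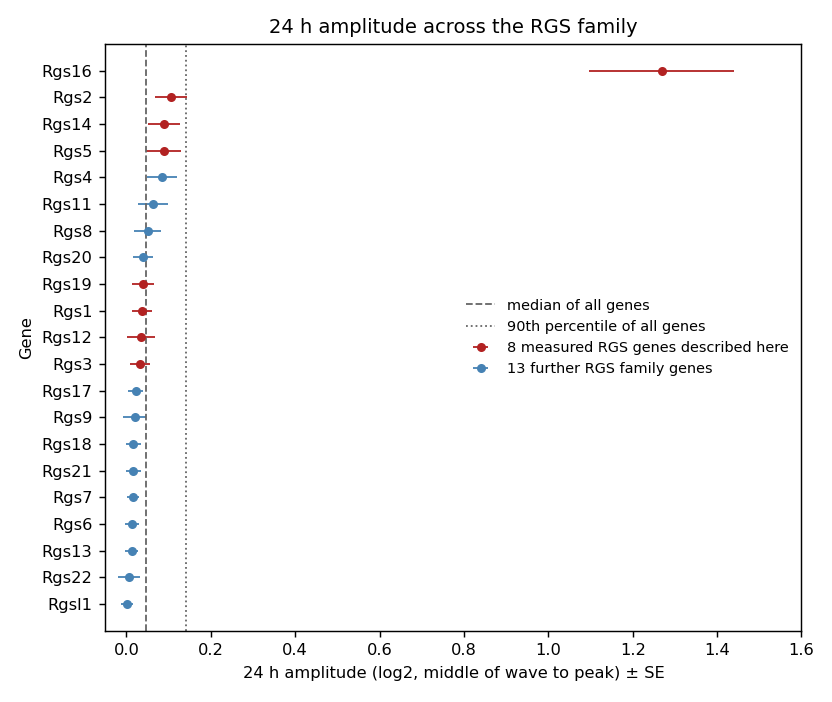
24 h amplitude (x axis, log2, with SE) of the 8 measured RGS genes (red) and 13 further family genes (blue), with the median and 90th percentile of all genes as vertical lines. Rgs16 at 1.27 stands apart, and the next, Rgs2, at 0.11 lies below the 90th percentile of 0.14.

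The partners of RGS proteins were followed through lists of genes for each step of the pathway. Of 15 alpha subunit genes measured, 2 were called in the 24 h fit (13.3%, against 13.8% of all genes). They were Gnat1, the alpha subunit of rod transducin and a member of the Gi class, with 1.69-fold, peaking at 7.57 h, and Gna12, of the G12 class, with 1.33-fold, peaking at 7.90 h. Gnai1, Gnai2 and Gnai3, the common Gi subunits, and Gnaq and Gna11 of the Gq class were not called (adjusted p = 0.293 for Gna11 to 0.993 for Gnai1). Of 17 beta and gamma subunit genes 2 were, Gngt1 with 1.21-fold at 1.87 h and Gng12 with 1.12-fold at 9.44 h. Gng12 (adjusted p = 0.0311) lost its call without CT00 replicate 1, CT09 replicate 1, CT12 replicate 3 or CT18 replicate 3, with an adjusted p up to 0.0618, and without any of 6 of the 8 times (up to 0.148), and Gngt1 lost it without CT03 (0.0931).

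Receptors of liver cells had 6 of 19 genes called (31.6%, against 13.8% of all genes), in a list chosen with earlier results of these data known. Avpr1a, the vasopressin receptor that couples to Gq, had the widest wave of the list, 2.69-fold, with its peak at 23.5 h (adjusted p = 1.77e-07). It was highest at CT00, where Rgs16 was below its plateau, with 0.68, 0.74 and 1.01, and lowest at CT12, with -0.96, -0.81 and -0.28. Adra1b, an alpha adrenergic receptor that also couples to Gq, had 1.43-fold at 23.3 h, and the sphingosine phosphate receptor gene S1pr1, which couples to Gi, 1.59-fold at 21.9 h. These 3 peaked when Rgs16 was low. The nucleotide receptor genes P2ry1 and P2ry2 peaked at 15.04 h (1.56-fold) and at 11.1 h (1.44-fold), the second of them on the plateau of Rgs16. Of the receptor list, 30 genes had been named and 19 had values.

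Downstream, 7 of 25 effector genes were called (28.0%, against 13.8% of all genes), 6 of them with a day peak. Adcy6, an adenylyl cyclase that Gi inhibits, had 1.32-fold with a peak at 9.0 h, and Adcy9 1.28-fold at 6.16 h. Prkacb, a catalytic subunit of protein kinase A, peaked at 10.4 h (1.21-fold), and the cAMP phosphodiesterase genes Pde4b and Pde4c at 3.91 h (1.34-fold) and 2.22 h (1.13-fold). The call of Adcy9 was lost without CT06 (adjusted p = 0.0598). That of Pde4c (0.0281) was lost without CT03 replicate 1, CT12 replicates 1 or 2, or CT15 replicate 2 (up to 0.0687), without any of 5 of the 8 times (up to 0.163), and without the 4 most deviating arrays (0.137). Among the receptor kinases and arrestins, which end signalling at the receptor, 1 of 6 was called (16.7%), near the share of all genes. This was Grk5, a receptor kinase, 1.89-fold, with its peak at 0.529 h (adjusted p = 4.67e-06). It was highest at CT03, with 0.49, 0.61 and 0.98, and lowest at CT09, with -0.51, -0.39 and -0.32, where Rgs16 was highest. Of 7 other regulators of alpha subunits 1 was called (14.3%), again near the share of all genes. This was Gpsm2, which carries GoLoco motifs (1.21-fold, 1.30 h, adjusted p = 0.0411). It was not called without any of 17 of the 24 arrays (up to 0.0955) or any of 5 of the 8 times (up to 0.188, without CT12). Nor was it called after centring (0.0525), with each probe set tested singly (0.0513) or without moderation (0.0666).

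Since Rgs16 is known to answer to carbohydrate, 9 further genes with that property were looked at, in a list chosen with earlier results of these data known. Of these 5 were called in the 24 h fit (55.6%, against 13.8% of all genes), with peaks at different times of the cycle. The list is mostly bright, with 8 of the 9 genes in the brighter class. The 13.8% counts genes of both classes and so is not a like background. When genes with all probe sets in the brighter class were tested alone, 1081 were called. How many genes that test held is not reported here, so no share of brighter genes is given. Slc2a2, the glucose transporter of hepatocytes, peaked at 10.9 h with 1.55-fold (adjusted p = 8.84e-07), Arrdc4 at 8.36 h with 1.36-fold and Txnip, an inhibitor of glucose uptake, at 9.38 h with 1.42-fold. These 3 peaked near Rgs16, with r = 0.83, 0.57 and 0.74 over the 24 arrays. Tkfc, a fructose enzyme gene, peaked at 16.2 h (1.34-fold) and Pklr, the liver pyruvate kinase, at 17.1 h (1.30-fold), with r = -0.08 and -0.05. Txnip (adjusted p = 0.0492) lost its call without any of 18 of the 24 arrays (up to 0.129), without any of 6 of the 8 times (up to 0.316, without CT21) and without the 4 most deviating arrays (0.129). It also lost it with array weights (0.0565), after centring (0.0515) or quantile normalization (0.0701), with each probe set tested singly (0.0641), without moderation (0.0895) and with a period of 26 h (0.0504). Pklr (0.0342) lost it without CT03 replicates 2 or 3, CT06 replicates 2 or 3, CT15 replicate 3, or any of the 3 arrays of CT18 (up to 0.0890), and without any of 5 of the 8 times (up to 0.349).

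**Figure D5:**
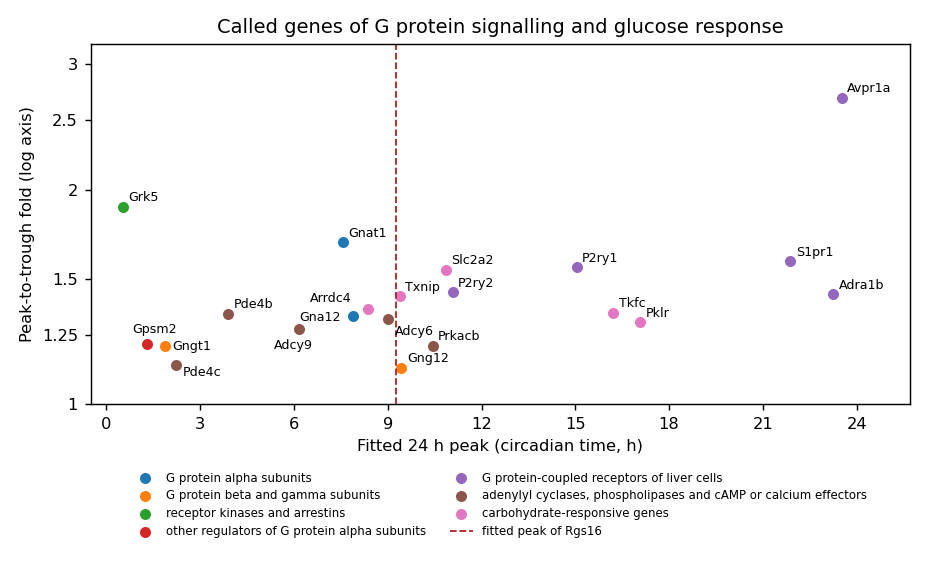
Fitted 24 h peak (x axis, circadian time in h) and peak-to-trough fold (y axis, log axis) of the called genes named from the G protein signalling and carbohydrate lists, coloured by list. The dashed line marks the Rgs16 peak at 9.26 h; the receptor genes Avpr1a, Adra1b and S1pr1 and the receptor kinase gene Grk5 lie on the other side of the cycle.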

How the data were processed

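The members and gene lists were chosen with earlier results of these data known. Per the labels' protocols, biotin-labelled RNA of single livers was hybridized to Affymetrix Mouse Gene 1.0 ST arrays. The deposited values are log2 values (base 2 is assumed, since neither the base nor the background correction, summarization or normalization by the authors is given in the sources used here), centred on the median of each probe set. They ran from -2.62 to 2.64, with array medians from -0.0185 to 0.0147 and interquartile ranges from 0.0992 to 0.200. Depth does not apply to arrays: their number limits the precision.

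Symbols came from the platform annotation (21780 of 28815 probe sets had 1 symbol, 1605 several and 5430 were not listed), and probe sets were averaged per gene, giving 19935 genes. Rounding steps put 4007 probe sets in a brighter class (log2 of at least 8), 24788 in a dimmer one and left 20 undecided. Models were fitted in limma (3.58.1, under R 4.3.3), with moderated statistics, Benjamini-Hochberg adjustment across all genes and a threshold of 0.05: a 24 h cosine and sine, added 12 h terms, equality of the 8 times, and 4 contrasts of times 12 h apart. Standard errors of amplitude and peak are by the delta method. The fits were tested on simulated data. Replicates are separate livers.

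Named genes are all members. From each pathway list, up to 5 called genes with the smallest p are named, or else the 1 with the smallest p. The 10 highest and 3 lowest correlations with Rgs16, and 3 neighbours on each side of Rgs16, complete them; 1 neighbour is not reported here. Same-numbered replicates were not paired, since the labels do not bear out a pairing. Their deviations correlated between -0.40 and 0.50, with a mean of 0.09, against a mean of -0.05 between other numbers. The 4 arrays that deviated most from the mean of their time were CT15 replicates 1 and 2, CT09 replicate 3 and CT18 replicate 3.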

Additional observations from a re-analysis of the deposited data

How the results depend on the processing

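The 24 h count of the RGS genes other than Rgs16 was 0 of 7 and stayed 0 under the alternatives run, except for 1 with array weights. The count for equality of the 8 times was 1, and became 0 after centring each array on its median, after quantile normalization, without moderation and without CT03, CT15, CT18 or CT21, and 3 with array weights; without single arrays it ran from 0 to 2. The count for the 12 h component over the 7 RGS genes other than Rgs16 was 0 and stayed 0 under the alternatives run. Rgs16 is left out of that count, since it was selected on these arrays. The count of differences 12 h apart was 0, and 2 with array weights; without single arrays it ran from 0 to 1. The 24 h amplitude of Rgs16 ran from 1.18 to 1.35 without single arrays and from 1.10 to 1.44 over the 41 alternatives run. Array weights called 4900 genes over the 8 times, against 2167. The 12 h component was called in 115 genes, against 57 after quantile normalization and 50 without moderation, and between 47 and 188 without single arrays and 24 and 166 without single times. Among brighter probe sets alone 1081 genes were called for a 24 h wave, against 2758, and 856 over the 8 times, against 2167, since fewer genes were tested. With the replicate block, which the labels do not bear out as a pairing, the 4 counts were 0, 1, 0 and 0, and the amplitude of Rgs16 was 1.27. The block raised the calls over all genes to 2984 for a 24 h wave and to 2664 over the 8 times. No RGS gene could be tested among brighter probe sets alone, since 7 lay in the dimmer class and Rgs16 could not be placed. The 4 most deviating arrays were left out as an alternative chosen after seeing the data, and the amplitude of Rgs16 was then 1.20. Why these calls moved was not tested.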
